A study of Mus musculus with 38 samples.

Results

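The genes described here are 9 markers of the type 1 alveolar cell and of the club and other secretory cells of the airway. The type 1 alveolar genes were Ager, Aqp5, Hopx, Pdpn and Rtkn2, and the secretory genes were Scgb1a1, Scgb3a1, Scgb3a2 and Bpifa1. They were listed by name as cell type markers. A probe was found through its transcript accession for 7 of the 9 genes, of 20018 genes named on the array, and these 7 genes had 10 probes of 55681. Aqp5, Hopx and Pdpn each had 2 probes, and the brighter one in lung is called probe 1. No probe was matched to Rtkn2 or Scgb3a2, so neither is reported. The value given for a probe is log2(Cy5/Cy3), the tissue signal over that of a reference RNA on the same array, and it cannot be compared between probes as a level.

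Type 1 alveolar cells are the broad, thin cells that cover most of the surface of the alveolus and form the barrier across which gas is exchanged. Club cells are secretory cells of the conducting airways that release secretoglobins and carry much of the lung's cytochrome P450 metabolism of inhaled and blood-borne chemicals, which makes them of interest with a polycyclic aromatic hydrocarbon. Ager encodes a receptor for advanced glycation end products that is at its most abundant in type 1 cells, Aqp5 a water channel of the apical membrane, Hopx a homeodomain protein without DNA binding of its own, and Pdpn the mucin-type membrane protein podoplanin. Scgb1a1 encodes the main club cell secretory protein, Scgb3a1 a related secretoglobin of the upper airways, and Bpifa1 a secreted protein of the nasal and upper airway epithelium.

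Male MutaMouse, a transgenic strain that carries a bacterial lacZ reporter for mutation assays, were about 10 weeks of age and were gavaged daily for 28 days with dibenz(a,h)anthracene (DBahA) in olive oil or with olive oil only. DBahA is a polycyclic aromatic hydrocarbon, and the mice received 0 (D0), 6.25 (D1), 12.5 (D2) or 25 mg/kg-bw/day (D3). Lung and forestomach, the squamous-lined upper part of the rodent stomach, were taken 72 h after the last dose, and RNA came from random sections of each tissue. Lung was measured in 5, 5, 4 and 5 mice at D0 to D3 and forestomach in 5, 5, 4 and 4 mice, on 19 arrays per tissue. Each array carried tissue RNA in Cy5 and a universal reference RNA from 11 mouse cell lines in Cy3, with no dye swap. In the labels 2 forestomach arrays (D3) carry the number 18 and none of those analysed here carries 20. Whether both came from the same animal is not stated, and they were averaged as mouse 18. The arrays of each tissue lay on 5 slides, of which slide 1 held mice 6, 11 and 16 and no D0 mouse.

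Between 41.4% and 63.8% of the probes were well above background in Cy5 on a lung array and between 30.1% and 60.8% on a forestomach array. The tissue labels were borne out by marker genes listed by name. All 10 type 2 alveolar genes and 6 of 6 endothelial genes were higher in D0 lung, and 6 of 6 squamous genes were higher in D0 forestomach. The forestomach arrays fell apart on 8 genes of the glandular stomach, the neighbouring acid-secreting part of the organ. Relative to the D0 arrays, their mean log2 ratio lay between -3.63 and -2.99 on 6 arrays and between 0.91 and 2.95 on the other 13, with mice of D0, D1, D2 and D3 on both sides. The 2 arrays of mouse 18 lay on opposite sides, at -2.99 and 2.53, and either one alone gave 0 of 10 calls in forestomach at D3. Of 6 airway cartilage genes, 0 were well above background on at least 10 lung arrays.

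Ager and Hopx, which varied together across the lungs, are shown here with the 250 bases before their transcription starts, as RefSeq gives them on GRCm38.p6. Of the 7 genes, 6 had an entry in the RefSeq promoter table. The Ager stretch lies at chr17:34597600-34597849 on the plus strand, and the starts of Hopx have stretches at chr5:77115124-77115373 and chr5:77095268-77095517 on the minus strand. Capitals mark a CTCAAG motif, the core of NKX2-1 sites, read here on the opposite strand.
Ager: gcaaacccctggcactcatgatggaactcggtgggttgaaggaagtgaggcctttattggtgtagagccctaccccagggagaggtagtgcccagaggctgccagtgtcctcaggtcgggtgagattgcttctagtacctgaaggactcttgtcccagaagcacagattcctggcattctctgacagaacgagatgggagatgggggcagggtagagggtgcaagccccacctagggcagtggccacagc
Hopx, upstream start: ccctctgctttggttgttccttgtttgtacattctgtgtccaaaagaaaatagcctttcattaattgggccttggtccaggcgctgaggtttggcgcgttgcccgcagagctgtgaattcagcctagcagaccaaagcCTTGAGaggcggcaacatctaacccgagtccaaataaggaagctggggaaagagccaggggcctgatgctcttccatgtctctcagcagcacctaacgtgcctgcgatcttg
Hopx, downstream start: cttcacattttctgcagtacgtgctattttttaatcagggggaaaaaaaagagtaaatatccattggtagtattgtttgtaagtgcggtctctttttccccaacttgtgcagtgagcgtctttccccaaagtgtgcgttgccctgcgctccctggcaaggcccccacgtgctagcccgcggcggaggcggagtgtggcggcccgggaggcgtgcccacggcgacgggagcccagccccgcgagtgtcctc
The sequences had GC contents of 57.6% for Ager and of 52.4% and 57.6% for the Hopx starts, against a median of 52.4% over 32851 promoters of the same length. In the sequences shown, the only match to 4 motifs searched on both strands was 1 CTCAAG, 112 bases before the upstream Hopx start. Among the entries not shown, Scgb3a1 and Bpifa1 also held CTCAAG, 172 and 213 bases before the start. Pdpn held TGTTTAC at 153 bases, Bpifa1 TATAAA at 29 and TGANTCA at 155, and Aqp5 none of the motifs. CTCAAG was held by 13.3% of all these promoters, TATAAA by 12.4%, TGTTTAC (forkhead) by 3.17% and TGANTCA (AP-1) by 6.75%. A match is a description of the letters and not evidence of a site.

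The first comparison set the untreated lung against the untreated forestomach of the same 5 mice. In the ratio to the reference, 6 of the 10 probes, from Ager, Aqp5, Pdpn and Scgb1a1, were higher in lung, and the probes of Hopx, Scgb3a1 and Bpifa1 did not pass the test. With the mouse as a replicate block, Hopx probe 2 passed as a fixed or random block and Scgb3a1 as a random one. A probe was called at a Benjamini-Hochberg adjusted p of at most 0.05 in limma with a fold change of at least 1.5. Across all probes, 16.2% were called in this comparison, and 8.62% were called higher in lung. In bulk tissue, more cells of a type and more RNA per cell cannot be told apart.

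Ager ratios in the lungs of the 5 vehicle mice were 5.26, 4.83, 4.78, 5.38 and 5.31 on the log2 scale, and in their forestomachs they lay between -0.28 and -0.02. Every lung was far above every forestomach, where the probe was well above background on 0 of 5 arrays. The difference was 5.30 (SE 0.15, limma adjusted p = 2.37e-24), and the Cy5 signal of Ager was at least 131.7-fold higher in lung. That bound sets the mean normalized Cy5 signal in lung against, on each forestomach array, the higher of the probe's own signal and the lowest signal well above background. It holds for signals scaled by loess within arrays and then between arrays, and depends on that scaling.

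Aqp5 probe 1 read 5.45, 5.24, 5.14, 5.17 and 5.47 in the D0 lungs, a narrow range, against 0.32, -1.71, 0.14, -0.30 and -1.86 in the forestomachs of mice 1 to 5. The difference was 5.98 (SE 0.42, limma adjusted p = 1.16e-13), and probe 2 differed by 3.26 (SE 0.15). The forestomach values split into high and low arrays, with mice 2 and 5 low.

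Pdpn probe 1 read 1.00, 1.11, 0.91, 0.40 and 0.69 in D0 lung and -2.14, -1.30, -1.76, -1.91 and -1.77 in D0 forestomach. It was thus higher in lung by 2.60 (SE 0.16, limma adjusted p = 6.61e-15), and probe 2 by 1.36 (SE 0.19). Podoplanin is also made outside the lung, by lymphatic endothelium and stromal cells, and probe 1 was well above background on 19 of 19 forestomach arrays.

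Hopx probe 1 read 4.55, 4.32, 4.41, 4.83 and 4.55 in D0 lung and 3.45, 3.85, 3.95, 4.71 and 4.32 in D0 forestomach. The tissues overlapped: the forestomach of mouse 4 was above the lungs of every vehicle mouse but its own. The difference of 0.47 (SE 0.21, 95% interval 0.04 to 0.91) had a limma adjusted p of 0.101, and probe 2 differed by 0.67 (adjusted p = 0.0625). With the mouse as a replicate block, probe 2 passed (adjusted p = 0.0289 fixed and 0.0385 random). Hopx is also a gene of squamous epithelium and of stomach, and both probes were well above background on all 19 forestomach arrays.

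Scgb1a1 read 7.28, 6.91, 6.67, 7.71 and 7.66 in D0 lung and 3.58, 4.28, 3.72, 3.92 and 5.02 in D0 forestomach. The groups did not overlap, and the difference was 3.14 (SE 0.44, 95% interval 2.25 to 4.04, limma adjusted p = 6.69e-07). As a ratio to the reference, the club cell gene was therefore 8.83-fold higher in lung, against a 166-fold difference between the median Cy5 intensities of all lung and all forestomach arrays.

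Scgb3a1 read 2.38, 3.65, 1.92, 3.16 and 4.02 in D0 lung and 0.63, 1.36, 3.25, 0.14 and 0.35 in D0 forestomach. Mouse 3 had the lowest lung and the highest forestomach of the 5. The difference of 1.88 (SE 0.73) had a limma adjusted p of 0.0526, and of 0.0355 with the mouse as a random replicate block.

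Bpifa1 was well above background in 3 of 5 D0 lungs, at 2.95, 1.64 and 1.53 in mice 1 to 3, and stood at 0.51 and 0.58 in mice 4 and 5. On the forestomach arrays it was well above background on 0 of 19. Its difference was 1.5 (SE 0.64, limma adjusted p = 0.0802). The calculation that gave the bound for Ager gave 1.83-fold for the mean Cy5 signal of Bpifa1 in D0 lung. It is not read as a lower bound, since that mean includes mice 4 and 5, where the probe was not well above background. Fitted on the Cy5 signal alone, scaled by quantiles between arrays, the difference was 1.13 (SE 0.64, limma adjusted p = 0.227) and did not pass.

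**Figure D1:**
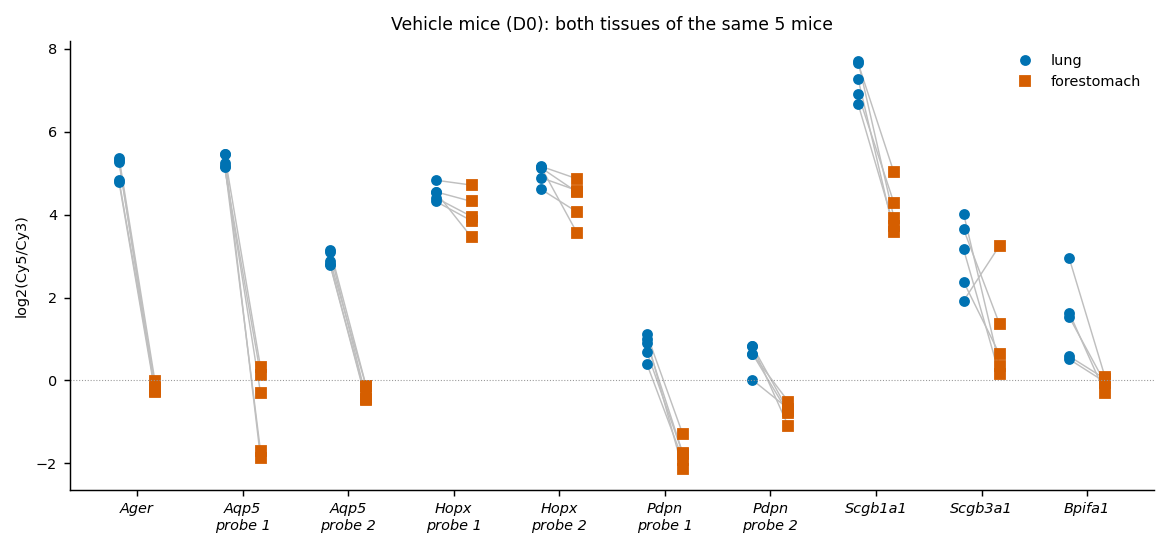
Log2(Cy5/Cy3) of the 10 probes in lung (circles) and forestomach (squares) of the 5 D0 mice, with a grey line joining the tissues of 1 mouse. Ager, both Aqp5 probes, both Pdpn probes and Scgb1a1 were higher in every lung than in every forestomach, while Hopx, Scgb3a1 and, for the dimmest lungs, Bpifa1 lay closer together.

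Further genes of the same cell types, listed by name, were mostly higher in lung too. Of 16 other type 1 genes, 13 were called higher in D0 lung and 0 lower, with a median difference of 2.81 on the log2 scale against -0.01 over all probes. Clic5, a chloride channel of the apical cytoskeleton, differed by 5.71 (SE 0.32) and Akap5, an anchor for protein kinase A, by 5.50 (SE 0.33). Igfbp2 at 0.06 (SE 0.25), Clic3 at 0.27 (SE 0.25) and Cldn18 at 1.05 (SE 0.49) did not pass the test.

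Of 16 other club and airway secretory genes, 11 were called higher in D0 lung and 1 lower, with a median of 1.47. Scgb1c1, another secretoglobin, differed by 4.30 (SE 0.22), and Cyp2f2, the club cell P450, by 1.42 (SE 0.25). The 1 gene that was lower in lung, by -4.18 (SE 0.90, limma adjusted p = 4.20e-04), was Muc5ac, a gel-forming mucin that the surface cells of the stomach also make.

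The 2 dyes were then read apart. The Cy3 channel held the same reference RNA on all 38 arrays, yet for several of these genes its signal moved with the tissue in the other channel. For Scgb1a1 the Cy3 intensity lay between 2838 and 11414 on the lung arrays, with a median of 5395, and between 82 and 548 on the forestomach arrays, with a median of 188. The highest forestomach value was below the lowest lung value, and the medians stood 28.7-fold apart. The Cy5 intensities of Scgb1a1 were 151882 to 399368 in lung and 428 to 6185 in forestomach, and no spot on any array was saturated.

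Cy3 medians were also higher on the lung arrays for Ager, at 446 against 61 (7.31-fold), for Aqp5 probe 2 at 485 against 154 (3.15-fold), and for Hopx at 2646 against 1196 for probe 1 (2.21-fold) and 902 against 455 for probe 2 (1.98-fold). They hardly moved for Pdpn, at 7603 against 7216 for probe 1. The Cy3 signal of Bpifa1 was well above background on 1 of 19 lung and 0 of 19 forestomach arrays and was not read. That of Scgb3a1 was well above background on 11 of 19 lung and 2 of 19 forestomach arrays, with medians of 57 and 46. The Scgb3a1 ratios therefore rest on a Cy3 signal near background on many arrays, and those of Bpifa1 on nearly all arrays. After scaling of the arrays, 0.314% of 32782 probes had Cy3 at least 2-fold higher on the lung arrays and 0.415% at least 2-fold lower, with a median difference over these probes of 0.02 on the log2 scale. Scgb1a1 at 4.87, Ager at 2.81, Aqp5 probe 2 at 1.53 and Hopx probe 1 at 1.01 were thus among the few that rose with lung RNA. The cause was not tested.

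**Figure D2:**
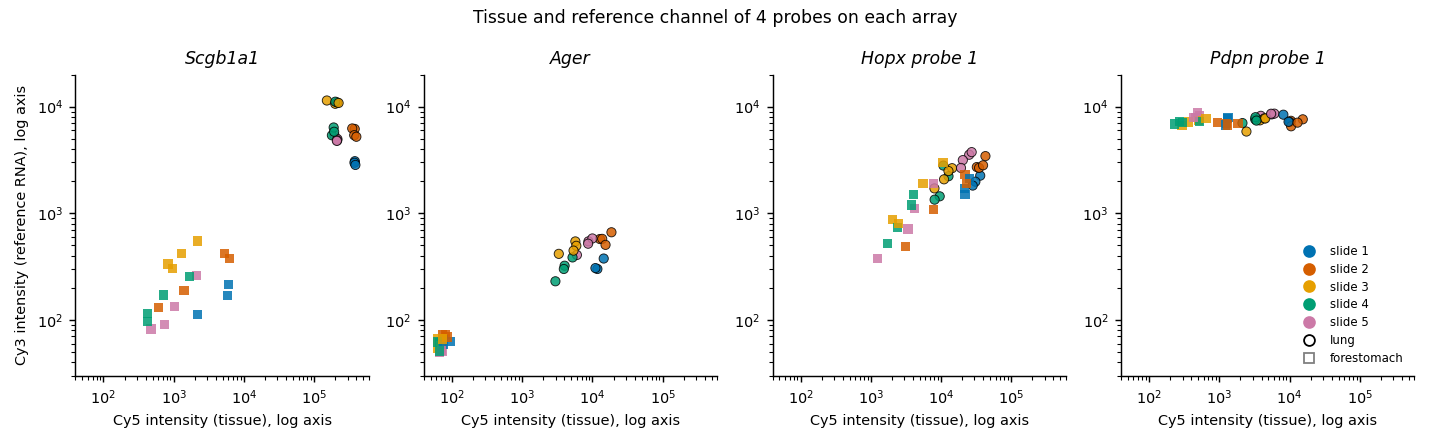
Cy3 intensity (reference RNA) against Cy5 intensity (tissue RNA) on each of 38 arrays for Scgb1a1, Ager, Hopx probe 1 and Pdpn probe 1, both axes logarithmic, with lung as outlined circles, forestomach as squares and slides by color. The same reference RNA gave Scgb1a1 signals of 2838 to 11414 beside lung RNA and 82 to 548 beside forestomach RNA, while the Cy3 signal of Pdpn stayed level.

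A higher Cy3 signal beside lung RNA lowers the lung ratio, so the comparison was repeated on the Cy5 signal alone, scaled by quantiles between arrays, a setting chosen after these Cy3 values were seen. In it, 8 of the 10 probes were called, all higher in lung, and 15% of all probes were called. Scgb1a1 was called at a fitted log2 difference of 6.59 (limma adjusted p = 3.15e-14). That size is not read as a fold, since the scaling put Scgb1a1 at the top of the scale on every lung array. Ager had a fitted difference of 6.61, which is no bound or fold either, as 0 of 5 forestomach arrays measured it and an offset of 50 was added to every signal. Both Hopx probes passed, probe 1 by 1.86 (3.64-fold, adjusted p = 7.81e-04) and probe 2 by 1.90 (adjusted p = 5.18e-04). Pdpn probe 1 moved little, from 2.60 to 2.51, and Scgb3a1 at 1.59 (adjusted p = 0.212) and Bpifa1 at 1.13 (adjusted p = 0.227) again did not pass.

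The second comparison asked whether the genes changed in the lung with dose. None of the 10 probes was called at D1, D2 or D3 against D0. Hopx probe 1 stood lower at D2 and D3 but did not pass the test. Across all probes, 0.14% were called at D1, 0.264% at D2 and 0.639% at D3. With 10 probes, 0 calls is also what these shares would give, and no result about the members was read from it. At an unadjusted p under 0.05 in limma, 0 of 10 probes stood out at D1 and 1 of 10, Hopx probe 1, at D2 and again at D3. Of all 55681 probes, 3636, 4487 and 6271 were at that level at D1, D2 and D3. On the Cy5 signal alone, 0 of 10 were called, against 0.154%, 0.329% and 0.593% of all probes, and 0, 2 and 3 of 10 stood out at that unadjusted level, the Hopx probes at D2 and D3 and Aqp5 probe 1 at D3. These Cy5 counts cannot be set against a share of all probes, as none was computed at that level for Cy5 alone. The doses share their D0 mice.

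Ager in the lung was 5.45, 4.76, 4.89, 5.30 and 5.26 at D1, 5.76, 4.83, 5.03 and 5.12 at D2, and 5.32, 4.87, 4.95, 5.13 and 5.03 at D3. Every dose group overlapped D0, and within each of these groups the lowest values came from slides 2 and 3 and the highest from slide 1. The difference at D3 was -0.05 (SE 0.17, 95% interval -0.40 to 0.29).

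Aqp5 probe 1, the steadiest of the 10 probes, was 5.40, 5.29, 5.13, 5.26 and 5.38 at D1, 5.39, 5.25, 5.36 and 5.12 at D2, and 5.22, 5.10, 5.23, 5.14 and 5.12 at D3. Its spread within dose groups, an SD of 0.12, was at percentile 11.3 of 27482 lung probes above background. The D3 difference was -0.14 (SE 0.08, limma adjusted p = 0.573), and that of probe 2 was -0.0026 (SE 0.11). On the Cy5 signal alone, probe 1 stood -0.34 from D0 (adjusted p = 0.384).

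Hopx probe 1 was 4.47, 4.02, 4.32, 4.43 and 4.39 at D1, 4.68, 3.94, 4.13 and 3.79 at D2, and 4.34, 3.99, 4.07, 4.30 and 4.14 at D3, against 4.32 to 4.83 at D0. At D3, 5 of 5 mice were below the D0 mean and 4 of 5 were below every D0 mouse. The difference was -0.37 at D3 (SE 0.14, 95% interval -0.65 to -0.08, limma adjusted p = 0.266) and -0.40 at D2 (SE 0.15, adjusted p = 0.430). Without mouse 11, the only D2 lung on slide 1, the D2 difference was -0.58 with an adjusted p of 0.0359, below the 1.5-fold limit. Within slides 2, 3, 4 and 5, the D3 mouse stood -0.33, -0.34, -0.54 and -0.41 from the D0 mice of the same slide.

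Hopx probe 2 did not share that difference in the ratio, at -0.10 (SE 0.12) at D3, and its within-slide values ran from -0.34 to 0.25. On the Cy5 signal alone the probes were closer. Probe 1 then stood -0.55 from D0 at D3 (limma adjusted p = 0.101) and probe 2 at -0.44 (adjusted p = 0.218), and at D2 they stood at -0.52 (adjusted p = 0.271) and -0.56 (adjusted p = 0.164). Neither probe passed the adjusted test in either setting. With each array centred on its median in place of loess, probe 1 turned to 0.20 at both D2 and D3.

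Pdpn probe 1 overlapped D0, which spanned 0.40 to 1.11, in every dose group. It spanned 0.65 to 1.10 in the D1 lungs, 0.54 to 1.28 in those of D2 and 0.62 to 1.03 in those of D3. Its D3 difference was 0.0040 (SE 0.14, 95% interval -0.29 to 0.29), and that of probe 2 was -0.02 (SE 0.15).

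Scgb1a1 in the lung was 7.71, 6.60, 6.72, 7.31 and 7.27 at D1, 7.99, 6.68, 6.67 and 6.47 at D2, and 7.78, 6.69, 6.68, 7.42 and 7.17 at D3. Each group spanned over 1 log2 unit, and the mice of slide 1 were the highest in D1, D2 and D3. The D3 difference was -0.10 (SE 0.29, 95% interval -0.69 to 0.49). The Cy5-only setting cannot resolve it, as quantile scaling put Scgb1a1 between 17.39 and 17.44 on every lung array, at the top of the scale.

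**Figure D3:**
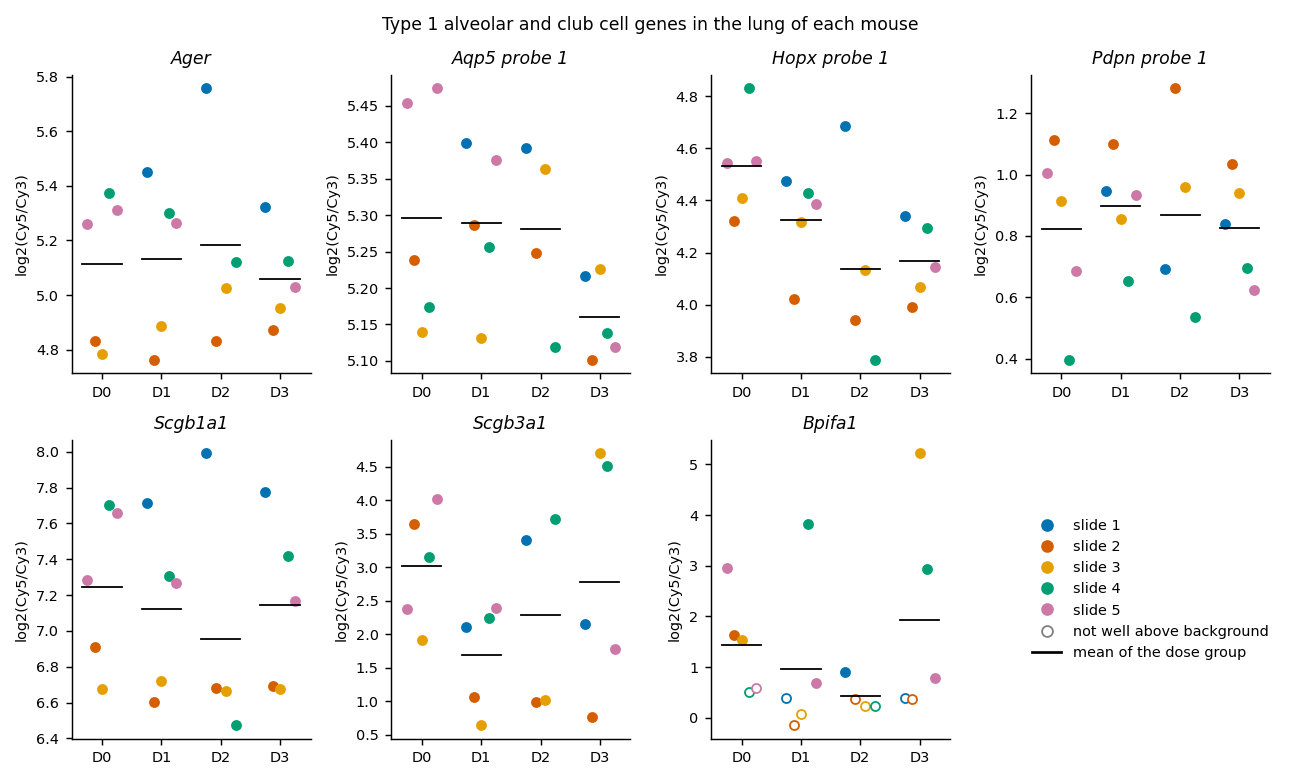
Log2(Cy5/Cy3) in the lung of each mouse by dose group for the lead probe of the 7 genes, colored by slide, with a bar at the group mean and open circles where Bpifa1 was not well above background. Dose groups overlap for every gene, slide 1 is high for Ager and Scgb1a1, and 4 of 5 D3 mice lie below all D0 mice for Hopx probe 1.

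Scgb3a1 and Bpifa1, the genes of the upper airways, varied far more between mice than the rest. Scgb3a1 was 2.11, 1.07, 0.64, 2.24 and 2.40 at D1, 3.41, 0.98, 1.02 and 3.72 at D2, and 2.16, 0.77, 4.70, 4.52 and 1.78 at D3. Its SD within dose groups was 1.27, at percentile 99.9 of the lung probes above background, and the D3 group alone spanned almost 4 log2 units. The difference at D1, -1.33 (SE 0.69, 95% interval -2.78 to 0.11), had a limma adjusted p of 0.790. At D3 it was -0.24 (SE 0.69), and within slides 2 to 5 it was -2.87, 2.78, 1.36 and -1.42.

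Bpifa1 was well above background in 9 of 19 lungs. The highest were mouse 18 at D3 with 5.21, mouse 9 at D1 with 3.83, mouse 1 at D0 with 2.95 and mouse 19 at D3 with 2.94, so high lungs came from both vehicle and treated mice. Its SD within dose groups was 1.48, and the D3 difference was 0.50 (SE 0.80, 95% interval -1.18 to 2.17). Without mouse 18 it was -0.32.

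**Figure D4:**
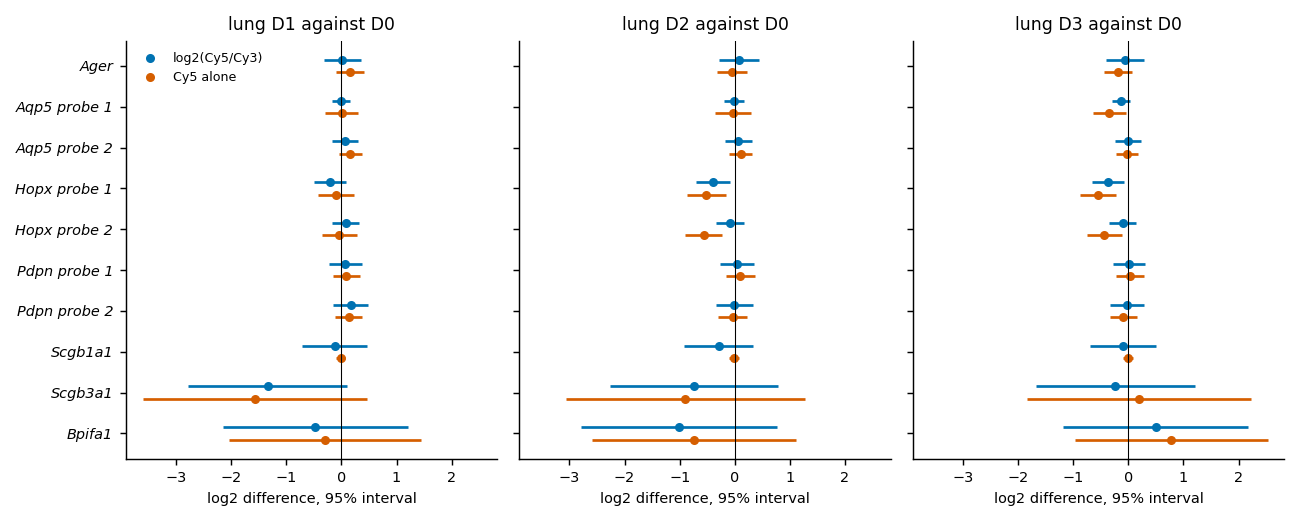
Log2 difference from D0 with its 95% interval for the 10 probes in lung at D1, D2 and D3, from the ratio (blue) and from the Cy5 signal alone (orange). Intervals are narrow for Aqp5 probe 1 and wide for Scgb3a1 and Bpifa1, and none of the probes was called in either setting.

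The wider lists gave no call at D3 either. Of the 16 other type 1 genes, 5 stood higher and 11 lower at D3, with a median of -0.13 and 0 called, against a median of -5e-04 over all probes. The largest differences were those of Timp3, an inhibitor of matrix metalloproteinases, at 0.43 (SE 0.17), Akap5 at -0.35 (SE 0.16), Igfbp2, an insulin-like growth factor binding protein, at 0.30 (SE 0.13) and the keratin Krt7 at -0.27 (SE 0.12), with limma adjusted p-values of 0.280 to 0.403.

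Of the 16 other club and airway secretory genes, 6 stood higher and 10 lower at D3, with a median of -0.08 and 0 called. At D1 and at D2, 2 stood higher and 14 lower, with medians of -0.34 and -0.24. At D3 the largest were Upk3a, a uroplakin that marks some club cells, at -0.58 (SE 0.25), the immunoglobulin transporter Pigr at -0.27 (SE 0.18), the mucin Muc5b at -0.23 (SE 0.39) and Cyp2f2 at -0.19 (SE 0.27), with limma adjusted p-values of 0.377 to 0.891. Between D3 and D1 in lung, 0 of 10 member probes were called, with 0% of all probes called and 0 of 10 at an unadjusted p under 0.05 in limma. At that unadjusted level there were 2448 of all probes in the ratio. No such count over all probes was made for the Cy5 signal alone. On the Cy5 signal alone 0 of 10 were called as well (0% of all probes), but 4 of 10 stood out at that unadjusted level, Ager at -0.33, Aqp5 probe 1 at -0.35 and the Hopx probes at -0.45 and -0.40, each with a limma adjusted p of 1.

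Slides took a large part of the variation in several of the genes. Within dose groups, 85.6% of the sum of squares of Ager in lung lay between slides (limma adjusted p = 3.58e-04), 81.4% of that of Scgb1a1 (adjusted p = 2.07e-04), 81.4% of Aqp5 probe 2 (adjusted p = 0.00754) and 75.6% of Pdpn probe 1 (adjusted p = 0.00547). The median over 27482 lung probes above background was 48.8%, and 17.2% of all probes passed this test of slide. For Scgb3a1 the share was 30.2% (adjusted p = 0.299) and for Bpifa1 18% (adjusted p = 0.598), so their spread lay mostly within slides.

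The slide means of Scgb1a1 in lung were 7.83, 6.72, 6.68, 7.23 and 7.34 for slides 1 to 5, and those of Ager were 5.51, 4.82, 4.91, 5.23 and 5.22. Slide 1 was the highest and slides 2 and 3 the lowest for both genes. The Cy3 intensity of Scgb1a1 followed the slides as well, at 2838 to 3078 on slide 1 and 10633 to 11414 on slide 3. On slide 4 it was 11125 for mouse 15, whose Scgb1a1 ratio of 6.47 was the lowest of the 19 lungs, and 5384 to 6375 for the other mice of that slide.

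Across the 19 lungs, with the dose means removed, the lead probes of the 7 genes gave 21 pairs. After Benjamini-Hochberg adjustment over the 21 permutation tests, 3 pairs passed by r and rho, and they joined Ager, Hopx and Scgb1a1. Ager and Scgb1a1 had r = 0.93 and rho = 0.88 (permutation, adjusted p = 7e-05 for r and 1.05e-04 for rho), Hopx and Scgb1a1 r = 0.89 and rho = 0.90 (adjusted p = 7e-05 and 1.05e-04), and Ager and Hopx r = 0.86 and rho = 0.87 (adjusted p = 7e-05 and 1.40e-04). Unadjusted, p for r was 1e-05, the smallest that 100000 permutations can give. Mice were shuffled freely across slides in this and all later permutation tests, also where slide means were removed. Their p-values do not allow for mice of 1 slide being alike. Without the 2 mice farthest from the median the 3 values of r were 0.89, 0.85 and 0.78.

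With the slide means removed too, the same pairs had r of 0.70, 0.91 and 0.76 (permutation, adjusted p = 0.00343, 2.1e-04 and 0.00126). On the Cy5 signal alone, r was 0.10 for Ager and Scgb1a1 and -0.21 for Hopx and Scgb1a1, where Scgb1a1 is at the top of the scale. For Ager and Hopx it was 0.75 (permutation, adjusted p = 0.00441), and 0.41 (adjusted p = 0.191) once slide means were removed. The relations with Scgb1a1 cannot be read on that scale, and that of Ager and Hopx did not pass there once slide means were removed as well. Ager and Pdpn passed by rho alone, at -0.63 with r = -0.57 (permutation, adjusted p = 0.0255 and 0.0572). With slide means removed their r was -0.17, and on the Cy5 signal alone it had the opposite sign, at 0.58 (permutation, adjusted p = 0.0574). On the Cy5 signal alone with slide means removed, their r was 0.64 and passed (permutation, adjusted p = 0.0319).

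The reference channel moved with these genes directly. The log2 Cy3 intensity of Scgb1a1 had r = -0.68 and rho = -0.61 with the ratio of Ager (permutation, adjusted p = 0.00617 and 0.0231 over 49 relations) and r = -0.59 and rho = -0.55 with that of Hopx (adjusted p = 0.0252 and 0.0431). Without the 2 farthest mice these values of r were -0.61 and -0.44, and with slide means removed -0.56 and -0.89. With the ratio of Scgb1a1, of which it is the denominator, r was -0.82, and with Pdpn it was 0.03. Whether it produced the relation of Ager and Hopx was not tested.

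Markers of other cell types moved with some of these genes over the same mice. Hopx had r = 0.70 and rho = 0.66 with the mean of the 10 type 2 alveolar genes (permutation, adjusted p = 0.00495 and 0.0126), and Ager r = 0.71 and rho = 0.70 with that of the 10 ciliated airway genes (permutation, adjusted p = 0.00495 and 0.00898). Without the 2 farthest mice r was 0.57 and 0.59, and the part of these cells in the relations was not tested. Scgb1a1 also followed the ciliated genes, with r = 0.73 and rho = 0.66 (permutation, adjusted p = 0.00376 and 0.0126), r of 0.62 without the 2 farthest mice and 0.34 with slide means removed. The mean of the 6 endothelial genes moved with Aqp5 at r = 0.76 and rho = 0.79 (permutation, adjusted p = 0.00216 and 0.00229), with r of 0.70 without the 2 farthest mice and 0.38 with slide means removed. It moved with Scgb1a1 at r = 0.65 and rho = 0.68 (permutation, adjusted p = 0.0143 and 0.0118), with 0.51 and 0.70 in the same order. Ager and Hopx rose with the endothelial mean too, at r = 0.57 and 0.56 (permutation, adjusted p = 0.0355 each). Without the 2 farthest mice these were 0.50 and 0.26. Scgb1a1 also followed the type 2 mean, at r = 0.59 (permutation, adjusted p = 0.0252). Aqp5 passed with the ciliated mean by r, at 0.54, and not by rho, at 0.36 (permutation, adjusted p = 0.0418 and 0.230). Pdpn had r = 0.77 and rho = 0.73 with the share of probes well above background on the array (permutation, adjusted p = 0.00216 and 0.00588), with r of 0.72 without the 2 farthest mice and 0.04 once slide means were removed.

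Scgb3a1 and Bpifa1 had r = 0.52 and rho = 0.47 across the lungs (permutation, adjusted p = 0.0731 and 0.112), and r = 0.30 without mice 17 and 18. With slide means removed, r was 0.53 and rho 0.62 (permutation, adjusted p = 0.0636 and 0.0252), and r was 0.25 without the 2 farthest mice. On the Cy5 signal alone r was 0.72 (permutation, adjusted p = 0.00567), and 0.68 (adjusted p = 0.0319) with slide means removed. Both probes were bright in mouse 18, at Cy5 intensities of 6826 for Scgb3a1 and 3424 for Bpifa1, where Cy3 was also the highest of the lungs, at 712 and 215. Scgb3a1 also followed the mean of the 16 other club and airway secretory genes, with r = 0.70 and rho = 0.74 (permutation, adjusted p = 0.00495 and 0.00551), r = 0.70 without the 2 farthest mice and r = 0.75 with slide means removed. Ager had r = 0.81 with the same mean, Scgb1a1 0.77, Hopx 0.62 and Aqp5 0.55 (permutation, adjusted p = 4.9e-04, 0.00131, 0.0190 and 0.0365). With slide means removed these were 0.71, 0.46, 0.34 and 0.52. Pdpn at -0.39 and Bpifa1 at 0.14 did not pass. With the mean of the 16 other type 1 genes, r was 0.53 for Ager, 0.61 for Aqp5, 0.46 for Hopx and -0.04 for Pdpn. With slide means removed these were 0.01, 0.0023, 0.39 and 0.54. Ager and Aqp5 passed by r (permutation, adjusted p = 0.0446 and 0.0230), and Hopx only by rho (adjusted p = 0.0979 for r and 0.0282 for rho). The club cell gene Scgb1a1 followed the same type 1 mean, with r = 0.56 and rho = 0.70 (permutation, adjusted p = 0.0365 and 0.0100). Its r was 0.30 with slide means removed.

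**Figure D5:**
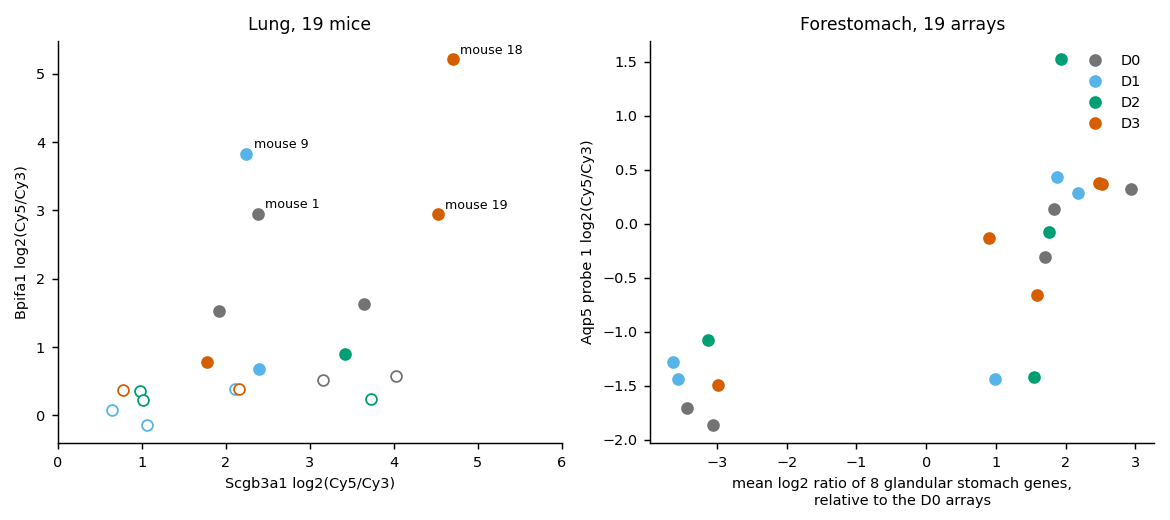
Left, Bpifa1 against Scgb3a1 in the lung of 19 mice (log2 ratios, open circles where Bpifa1 was not well above background). Right, Aqp5 probe 1 against the mean log2 ratio of 8 glandular stomach genes, relative to D0, on 19 forestomach arrays, where the 6 arrays low in glandular genes all have Aqp5 at -1.08 or below.

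The genes whose lung pattern was most like that of each member were found among 13701 genes by Pearson r over 19 lung arrays, as a description. For Ager they were Sfta2 (0.94), Gpx3 (0.92) and Clic3 (0.92), and for Scgb1a1 Gpx3 (0.91), Clic3 (0.91) and Robo4 (0.88). For Hopx they were Ptprb (0.91), Hba-a1 (0.88) and Fgf1 (0.85). The Cy3 signal of these 7 genes was also higher on the lung arrays than on the forestomach arrays, by 0.79 for Clic3 up to 4.61 for Hba-a1 on the log2 scale.

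The pattern nearest to Scgb3a1 was that of Muc5b (0.91), a mucin of airway secretory cells, followed by Bpifb1 (0.85), a secreted relative of Bpifa1, and Cyp2a4 (0.81). The Cy3 of Muc5b differed by 0.04 between tissues and that of Bpifb1 by -2.45. Muc5b read 2.66 and 2.64 in mice 18 and 19, where Scgb3a1 read 4.70 and 4.52, and 0.76 in mouse 8, where Scgb3a1 was lowest at 0.64. For Pdpn the nearest were Bsg (0.84), Akap10 (0.83) and Trp53bp2 (0.82), for Aqp5 Ednrb, Tppp3 and Ncoa1 (0.76 each), and for Bpifa1 Plxna1 (0.83), Rps13 (0.74) and Zfp36 (0.72).

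In the forestomach, 0 of 10 probes were called at D1, D2 or D3, and 0% of all probes were called at any dose. At an unadjusted p under 0.05 in limma there were 0 of 10 member probes at each dose, and 2402, 1737 and 1986 of all probes at D1, D2 and D3.

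Scgb1a1 was well above background on 19 of 19 forestomach arrays. Its ratios were 5.97, 3.65, 3.80, 4.40 and 4.55 at D1, 4.83, 2.21, 3.62 and 4.88 at D2, and 5.48, 4.24, 4.03 and 3.43 at D3, where mouse 18 is the mean of 3.89 and 4.18. Mouse 12 was the lowest, and it also had the lowest mean of the 6 squamous genes, at -0.56 relative to D0, while the highest, mouse 6, had the highest at 0.56, and the part of squamous cells was not tested. The alveolar gene Sftpa1 was above background on 0 of 19 forestomach arrays, Sftpb on 1, Sftpc on 4 and the airway gene Scgb1c1 on 0. Sftpc read 2.93 in mouse 17 (D3). Other genes of the lists went the other way, with Cyp2f2 and Pigr above background on 19 of 19. On at least 10 forestomach arrays, 4 of 10 type 2 alveolar, 3 of 10 ciliated and 12 of 16 other club and airway secretory genes were above background. Whether the forestomach samples held lung or airway material was not tested.

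Aqp5 probe 1 moved with the glandular stomach genes. On the 6 arrays low in them it read -1.86, -1.71, -1.49, -1.44, -1.28 and -1.08, of which only mouse 2 at -1.71 was well above background, and on the other 13 it ran from -1.44 to 1.52. Mice 6 and 11, at -1.44 and -1.42, were the only ones of the 13 whose ratio lay within the range of the 6. On the Cy5 signal alone, D3 mice 16 and 17 lay within that range too, at 7.02 and 7.05 against 6.12 to 7.06. Their Cy3 intensities of 284 and 234 were low beside the forestomach median of 583. Aqp5 is also a water channel of gland cells outside the lung, and the part of glandular tissue was not tested beyond the covariate. As the arrays formed separate clusters, no correlation is given. With the glandular mean as a covariate, 0 of 10 probes were called at each dose, and 8 in the D0 comparison of tissues.

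Scgb3a1 ran from 0.10 to 1.62 on most forestomach arrays, and its Cy5 was well above background on 9 of 19. It read 3.25 in mouse 3 (D0) and 4.06 in mouse 10 (D1). The same 2 forestomachs had the highest Muc5b ratios, at 2.13 and 2.63.

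The response to D3 was then set between the tissues. In limma, 0 of 10 probes differed in their D3 response between lung and forestomach, with 0.172% of all probes called, and 0 of 10 stood out at an unadjusted p under 0.05. The nearest were the Pdpn probes, whose lung response exceeded that of the forestomach by 0.35 (95% interval -0.13 to 0.84) and 0.39 (95% interval -0.17 to 0.96).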

How the data were processed

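The deposited scanner files give the median intensity of 62976 spots per array on a linear scale, without background subtraction. Per the file headers they also give a log10 ratio after background subtraction and dye normalization by Agilent Feature Extraction, version 10.7.3.1. The authors also deposited log2 ratios per probe, whose scale and centring are not stated. Set against the ratios computed here they had slopes of 0.990 to 0.998, so they were taken as log2(Cy5/Cy3), with medians of -0.0415 to -0.0195, and used as an alternative. Following the study's methods, median intensities without background correction were loess-normalized within arrays. Outlier spots were left out (372 values of a probe) and spots averaged to 55681 probes. Symbols came from RefSeq by accession, for 26413 probes. The array design uses mm9.

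Groups were fitted in limma 3.58.1 (R 4.3.3) per tissue, tissue contrasts over both, in place of the study's MAANOVA. Forestomach arrays of mouse 18 were averaged, except in fits with slide or scan day, which keep them apart. Mouse numbers in the labels pair the tissues, and mouse was an alternative block. Over 18 pairs the residuals correlated at 0.087 to 0.312 (median 0.223, 21592 probes). Both tissues of a mouse lay on the same slide, except the second array of mouse 18. These values are therefore not read as a test of the pairing. Correlations used 100000 permutations. Members, lists and tests were chosen with earlier results of these data known. All probes of the members were named, of each further list the called genes or examples of them and the 4 largest lung D3 differences among genes above background on 10 arrays, and the 3 most alike genes. The number of arrays limits the precision.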

Additional observations from a re-analysis of the deposited data

Results flagged for a closer look

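In 80 groups of 4 or 5 mice, the gap between the highest or lowest mouse and its nearest neighbor, as a share of the range, passed Dixon's 95% limit in 7, and chance alone flags about 1 in 20 groups. In lung these were mouse 11 at D2, the highest for Scgb1a1 (share 0.862, 7.99 against 6.68 for the next mouse) and for Aqp5 probe 2 (0.874, 3.22 against 2.95). They were also mouse 9 at D1, the highest for Bpifa1 (0.792, 3.83 against 0.68), and mouse 5 at D0, the lowest for Pdpn probe 2 (0.769, 0.01 against 0.64). In forestomach they were mouse 6 at D1, the highest for Ager (0.779, 0.38 against -0.11, not above background), mouse 7 at D1 for Aqp5 probe 2 (0.848, -0.01 against -0.34) and mouse 16 at D3 for Scgb3a1 (0.848, 1.62 against 0.47). Mouse 11 was the only D2 lung on slide 1.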

How the results depend on the processing

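The 0 calls at each dose in lung and forestomach and between tissues held under every alternative run, including without each mouse. The D0 comparison of tissues gave 6 called probes, 6 to 9 under the alternatives and 6 to 8 without each mouse. With mouse as a replicate block it gave 7 (fixed) and 8 (random), adding Hopx probe 2 (limma adjusted p = 0.0289 and 0.0385) and, in the random fit, Scgb3a1 (0.0355), and the block changed no other call. With slide as a block it gave 8, and with the dim-probe filter 9. On the Feature Extraction ratio Bpifa1 was called too, at 4.66.

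At D3 in lung no probe passed, and signs near 0 turned. Median centring gave Ager 0.39, Aqp5 0.36 and 0.38, Hopx 0.20 and 0.44, Pdpn probe 2 0.27 and Scgb1a1 0.49, and Hopx probe 1 at D2 0.20. The Feature Extraction ratio gave Pdpn probe 1 -0.11 and Bpifa1 -0.68, scan day as a block Aqp5 probe 2 0.029 and Pdpn probe 1 -0.034, slide as a block Pdpn probe 2 0.017, and Cy5 alone Scgb3a1 0.19. Without each mouse in turn, values ran from -0.13 to 0.014 for Ager, -0.044 to 0.052 for Aqp5 probe 2, -0.10 to 0.0765 and -0.17 to 0.037 for the Pdpn probes, -0.26 to 0.017 for Scgb1a1, -0.72 to 0.26 for Scgb3a1 and -0.32 to 0.89 for Bpifa1. The causes were not tested.

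Of the correlations, 3 pairs passed, 10 under median centring and 6 in the deposited value table. On Cy5 alone 2 passed, and 3 with slide means removed as well. Those last 3 were not the pairs that passed in the ratio. They were Ager with Pdpn (r = 0.64), Aqp5 with Scgb1a1 (0.63) and Scgb3a1 with Bpifa1 (0.68), with permutation adjusted p of 0.0319, 0.0434 and 0.0319. Scgb1a1 is at the top of the scale there. On Cy5 alone, without and with slide means removed, Hopx and Scgb1a1 had r of -0.21 and -0.36 and Ager and Scgb1a1 0.10 and 0.27. Ager and Hopx had 0.41 with slide means removed. Over all probes, median centring called 16 in place of 356 at D3 in lung, 5 in place of 147 at D2, 0 in place of 78 at D1 and 4561 in place of 9032 between D0 tissues. The slide block called 130, 242 and 505 at D1, D2 and D3, and the Feature Extraction ratio 160, 225 and 533. Bpifa1 was near background in 10 of 19 lungs, and its Cy3 was well above background on 1 of 19, which limits what its values show.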

Other observations

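Lists of neighboring cell types gave these values in lung at D3 against D0, with 0 genes called in limma in each. Of 10 ciliated airway genes, 1 stood higher and 9 lower, with a median log2 difference of -0.18. Of 10 type 2 alveolar genes, 2 stood higher and 8 lower (-0.10), and of 6 endothelial genes 3 and 3 (0.01). Airway cartilage genes (-0.01) and thyroid and salivary genes (-0.11), neighbors that a dissection could carry along, were at or near background for most genes. Between D0 tissues, 9 of 10 ciliated genes were called higher in lung, with a median of 3.08. In forestomach at D3, 8 of 8 glandular stomach genes stood higher than at D0, with a median of 1.27 and 0 called. At D0, mice 2 and 5 lay among the arrays low in these genes, at -3.43 and -3.06. At D3 only the first array of mouse 18 did, at -2.99. The difference cannot be told apart from this split of the samples.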
